A study of Rattus norvegicus with 10 samples.

Results

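Of the 14782 SOX9 peaks mapped in RCS cells, 1630 overlapped no deposited peak of SOX6, H3K27ac, H3K4me1, H3K4me3 or H3K9me3. These sites, called unmarked SOX9-only sites, are 11.0% of the SOX9 list. An overlap meant at least 1 bp in common, so the sites were chosen by the overlaps themselves, and the absence of a mark at them is the rule and not a result. The other 13152 SOX9 peaks comprised 8329 that met a SOX6 peak and 4823 that met at least 1 histone mark but no SOX6 peak. By the same rule, 2115 of the 19355 SOX6 peaks (10.9%) overlapped no SOX9 peak and no mark, and these unmarked SOX6-only sites were used for comparison.

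RCS cells are a line of rat chondrosarcoma cells, a tumour of cartilage-forming cells. Chromatin immunoprecipitation with sequencing was carried out with antibodies to SOX9, SOX6, H3K27ac, H3K4me1, H3K4me3 and H3K9me3, with 1 library each, and 4 input libraries had no antibody, of which SOX9, SOX6 and H3K27ac had 1 each and the 3 methylation marks shared 1. The labels name no treatment, no genetic change and no second line. No value below has a replicate error, no test between conditions was possible, and each interval is a 95% interval for counting error only. Since neighbouring peaks depend on each other, repeated libraries would vary by more than these intervals show. No gene annotation of the build was used, so the cell type was not checked against marker genes and no site was assigned to a gene.

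SOX9 is a transcription factor of the SRY-related family that bends DNA through an HMG box and directs the formation of cartilage. SOX6 lacks a known activation domain of its own and acts with SOX9 at cartilage enhancers. H3K27ac is found at active promoters and enhancers, H3K4me1 mainly at enhancers, H3K4me3 mainly at promoters, and H3K9me3 in heterochromatin. The first 3 are called active marks here. A site without a peak in one of these lists may still carry signal below the lowest score of that list, which is close to 50 for the SOX9 peaks.

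The 5 lists did not contribute equally to the rule. H3K4me1 was the sole overlap of 567 SOX9 peaks, so that 2197 sites would have been unmarked without that list. H3K27ac was the sole overlap of 115 peaks, H3K9me3 of 106, SOX6 of 74 and H3K4me3 of 28. Membership thus turned most on H3K4me1, the list with the most peaks.

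At the edge of the rule, the site nearest to another list lay on chromosome 15 from 32457056 to 32457312 (rn5), 3 bp from an H3K4me1 peak. The next sites lay on chromosome 4 from 139082855 to 139083402 and on chromosome 11 from 87859228 to 87859577, each 9 bp from an H3K9me3 peak. A site on chromosome 2 from 111919322 to 111919629 lay 10 bp from an H3K4me1 peak, and one on chromosome 4 from 13859081 to 13859610 lay 41 bp from an H3K4me1 peak. Their scores lay between 50.6 and 68.8. The SOX9 peak kept out by the smallest overlap lay on chromosome X from 38893081 to 38893378 and shared 6 bp with an H3K27ac peak. Others were kept out by 12 bp of H3K4me3 on chromosome 11 from 34970648 to 34970953, by 14 bp of H3K9me3 on chromosome 19 from 9151548 to 9152203, by 18 bp of H3K9me3 on chromosome 15 from 63716285 to 63716469 and by 21 bp of H3K4me1 on chromosome 7 from 10000970 to 10001312. The scores of these excluded peaks were 52.7 to 98.9. In all, 215 of the 1630 sites lay no more than 1 kb from an interval of the other lists, and 124 lay more than 100 kb from any.

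Unmarked SOX9-only sites were concentrated at the lowest scores of the SOX9 list. The score is the authors' peak score, of which no source used here gives the scale. The median score was 55.5 (quartiles 52.1 and 61.9) for the unmarked sites and 103 (65.8 and 221) for other SOX9 peaks. Of the unmarked sites, 769 (47.2%) had a score below 55 and 31 (1.90%) had a score of 100 or more. When the SOX9 list was divided into quintiles by score, unmarked sites made up 34.1% (Wilson interval 32.4% to 35.8%) of the lowest quintile, 16.7% (15.4% to 18.0%) of the second and 3.83% (3.19% to 4.58%) of the third. They were 14 of 2956 peaks in the fourth quintile and 2 of 2957 in the highest. None of the 16 SOX9 peaks that shared the top score of 3100 was an unmarked site.

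They were also narrow. The median width was 269.5 bp (quartiles 229 and 366 bp) at unmarked SOX9-only sites and 577 bp (409 and 835 bp) at other SOX9 peaks. Of peaks under 200 bp wide, 43.5% (38.2% to 49.0%) were unmarked, and of those from 200 bp to under 300 bp, 42.9% (40.7% to 45.1%). Of peaks of 1000 bp or wider, 6 of 2155 were unmarked. A narrow interval meets other intervals less easily, so width is not independent of the rule. The order held at matched score, since in the lowest quintile the median width was 258 bp at unmarked sites and 410 bp at other SOX9 peaks, and in the third quintile 358 bp and 525.5 bp. In the SOX6 list the unmarked SOX6-only sites had a median width of 255 bp and a median score of 58.7, against 490 bp and 116 for the other SOX6 peaks.

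**Figure D1:**
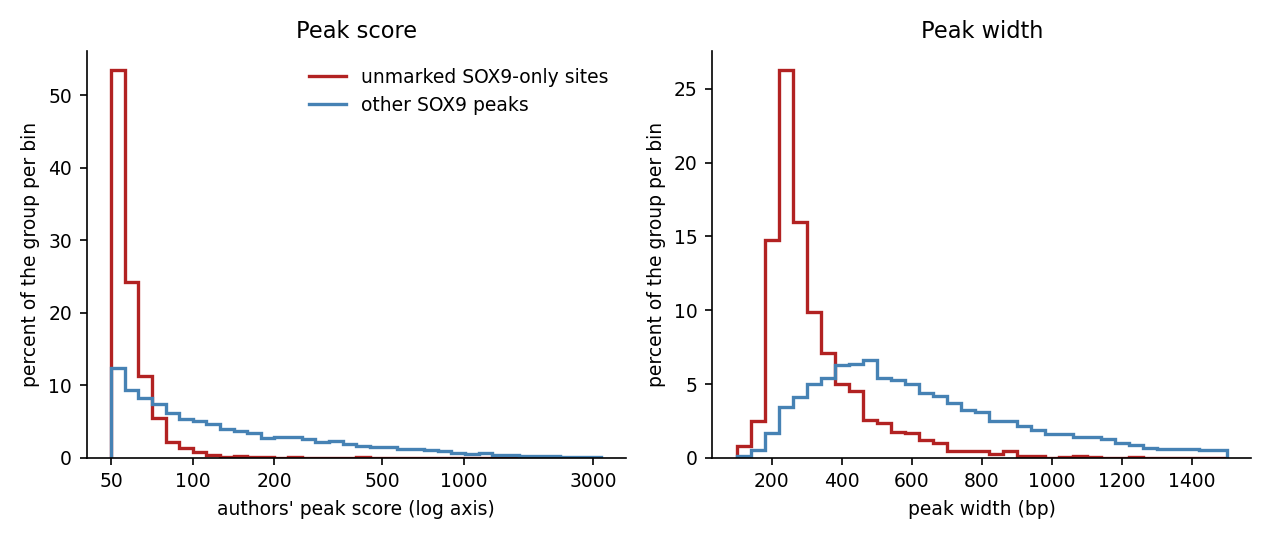
Percent of unmarked SOX9-only sites (red, n = 1630) and of other SOX9 peaks (blue, n = 13152) per bin of the authors' peak score (left, log axis) and of peak width in bp (right, drawn up to 1500 bp). The unmarked sites crowd at the low end of both, with medians of 55.5 and 269.5 bp against 103 and 577 bp.

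Of the 10 highest-scoring unmarked sites, 9 lay more than 20 kb from any active mark. Of all 1630 sites, 54.5% had their centre within 19.95 kb of one. The first was on chromosome 11 from 2763875 to 2764333, with a score of 433, and lay 20.5 kb from H3K4me1, the nearest active mark, 20.96 kb from a SOX6 peak and 2.42 kb from an H3K9me3 peak. The second was on chromosome 9 from 27604001 to 27604852, with a score of 405, and lay 29.4 kb from H3K4me1 and 8.35 kb from H3K9me3. These are the 2 unmarked sites in the highest quintile of the SOX9 scores, and both lay nearer to H3K9me3 than to an active mark.

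The next were on chromosome 5 from 134131530 to 134132028 and on chromosome X from 110655218 to 110655648, both with a score of 229 and with the nearest active mark at 66.2 kb and 59.6 kb. The site on chromosome 7 from 31685471 to 31685990 had a score of 183 and lay 3.90 kb from H3K4me1 and 4.13 kb from H3K4me3. It was the only site of the 10 within 20 kb of an active mark. The remaining 5 had scores between 134 and 170. Chromosome 20 held 2 of them, from 35446880 to 35447347 and from 45252428 to 45252764. The others started at 93481023 on chromosome 15, ending at 93481391, at 101128281 on chromosome 1, ending at 101128549, and at 21229680 on chromosome 11, ending at 21230307. Of these, the site on chromosome 15 lay 2.11 kb from H3K9me3 and 185 kb from the nearest active mark. For 5 of the 10 sites H3K9me3 was the nearest of the 5 lists. It was thus nearer than any active mark at these 5, against 37.8% of all unmarked SOX9-only sites. Of the 10, 3 lay within 10 kb of H3K9me3, where 23.5% of all unmarked SOX9-only sites did.

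Over all 1630 unmarked SOX9-only sites, the median distance from edge to edge to the nearest active mark was 16.01 kb (order-statistic interval 14.4 to 18.1 kb), with quartiles of 4.72 and 56.6 kb. It was 18.4 kb to H3K4me1, 36.1 kb to H3K27ac and 52.1 kb to H3K4me3, which follows the order of the numbers of peaks in these lists. H3K9me3 was 33.5 kb away (30.2 to 37.5 kb). At 616 sites, or 37.8% (35.5% to 40.2%), an H3K9me3 peak was nearer than any active mark. For unmarked SOX6-only sites that share was 33.6% (31.6% to 35.6%). It was not computed for unmarked genome in general.

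The nearest active peak was H3K4me1 at 1142 unmarked sites (70.1%, 67.8% to 72.2%), while H3K4me1 makes up 55.6% of all active-mark peaks. It was H3K27ac at 243 sites and H3K4me3 at 245. Which mark is nearest was not counted over unmarked genome in general, so the share for H3K4me1 is not shown to be particular to the sites. The nearest H3K4me1 and H3K4me3 peaks tended to be low in their own lists, and for the nearest H3K27ac peaks this was less clear. Of the nearest H3K4me1 peaks 34.7% scored above the median of the H3K4me1 list, of the nearest H3K27ac peaks 44.9% above theirs and of the nearest H3K4me3 peaks 31.0% above theirs, where 50% of a whole list would. The scores of the peaks nearest to unmarked genome in general were not examined. The low scores therefore cannot be read as particular to these sites.

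The sites were nevertheless closer to active marks than the unmarked genome as a whole. The 5 other lists left 2715 Mb outside any peak, and this length, taken every 100 bp, served as the measure. Distances were taken here from the centre of each site. Of the unmarked SOX9-only sites, 25.8% (23.8% to 28.0%) lay within 5 kb of an active mark, against 17.6% of the unmarked length, a ratio of 1.47. Within 10 kb the shares were 39.5% (37.2% to 41.9%) of sites and 27.8% of the length, and within 100 kb 84.3% (82.4% to 86.0%) and 70.3%. The median distance was 16.2 kb for the sites and 32.9 kb for the length. This length holds 86 stretches of more than 1 Mb, 242 Mb in all, in which none of the 6 lists has a peak. Of these, 4 exceed 10 Mb, and the longest covers 65.2 Mb of chromosome 4 (67919747 to 133133558). With these empty stretches left out, a step added after they had been seen, 19.3% of the length lay within 5 kb of an active mark and 30.5% within 10 kb. The ratios were then 1.34 and 1.297, and the median distance of the length was 26.3 kb.

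**Figure D2:**
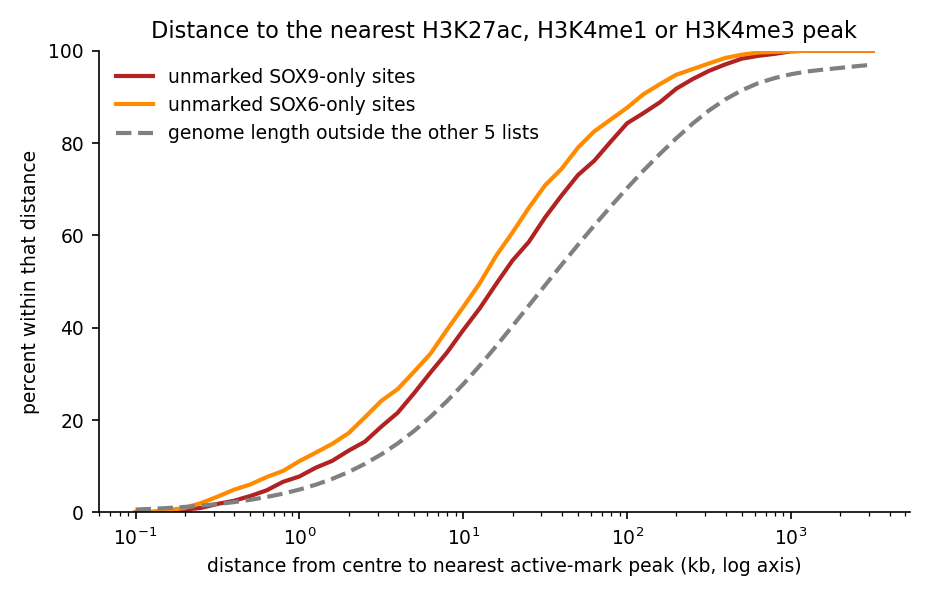
Cumulative percent of unmarked SOX9-only sites (red), of unmarked SOX6-only sites (orange) and of the genome length outside the other 5 lists (grey, dashed) within a given distance in kb (log axis) of the nearest H3K27ac, H3K4me1 or H3K4me3 peak. Within 10 kb lay 39.5% of the SOX9-only sites, 44.5% of the SOX6-only sites and 27.8% of the length.

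The same held for H3K9me3 and by about as much. Within 5 kb of an H3K9me3 peak lay 14.5% (12.9% to 16.3%) of unmarked SOX9-only sites and 10.1% of the length, a ratio of 1.45 (1.32 without the empty stretches), and within 10 kb 23.5% (21.5% to 25.6%) and 16.98%. For SOX6 peaks the shares within 10 kb were 10.9% (9.50% to 12.53%) of sites and 7.91% of the length, a ratio of 1.38 (1.26 without the empty stretches). Unmarked SOX6-only sites stood closer to active marks than the SOX9-only sites, with 44.5% (42.4% to 46.6%) within 10 kb. Their ratio to the length was 1.601. That length leaves out SOX6 peaks and keeps SOX9 peaks, so it does not match the SOX6-only rule exactly. Near H3K9me3 the SOX9-only and SOX6-only shares within 5 kb were 14.5% and 15.4%, with intervals that overlap.

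By the length of the stretch free of active marks in which they lay, unmarked SOX9-only sites were densest in short stretches. Stretches of 10 to 50 kb held 502 sites, or 0.893 per Mb, and those over 500 kb held 258, or 0.324 per Mb (0.465 per Mb without the empty stretches). The empty stretches hold no site by definition, so leaving them out can only raise that value. The long stretches made up 28.9% of the length free of active marks and held 15.8% (14.1% to 17.7%) of the sites. The 1630 sites were spread over 1506 such stretches, and 105 stretches held more than 1.

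The score and width of unmarked SOX9-only sites varied little with their distance from active marks. Sites no more than 1 kb away had a median score of 55.7 and a median width of 277 bp (149 sites), and sites 100 to 500 kb away had 54.4 and 267 bp (227 sites). The 28 sites more than 500 kb away had a median score of 59.5. The distance to other SOX peaks increased with the distance to active marks, which this sorting largely sets. Most SOX peaks lie on active marks, with 80.2% of SOX9 peaks and 75.7% of SOX6 peaks overlapping H3K27ac. The nearest other SOX9 peak was at a median of 28.8 kb and the nearest SOX6 peak at 22.8 kb for sites within 1 kb, and at 278 kb and 279 kb for sites 100 to 500 kb away.

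The 5 sites farthest from all other lists lay on chromosomes X, 13 and 15. The first was on X from 86398465 to 86398900, with a score of 88.9 and 1013 kb to the nearest interval, an H3K4me1 peak. The second, on X from 126881978 to 126882264, had 788 kb to an H3K9me3 peak. The pair on chromosome 13, from 4214986 to 4215195 and from 3697497 to 3697707, had 697 kb and 674 kb to H3K9me3. The site on chromosome 15 from 78639795 to 78640126 had 549 kb to H3K4me3.

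Unmarked SOX9-only sites lay farther from other SOX9 peaks than the remaining SOX9 peaks did, and closer to them than unmarked genome did. The nearest other SOX9 peak of any kind was 79.9 kb away (72.7 to 89.7 kb) from the unmarked sites and 19.0 kb away (18.3 to 19.8 kb) from the other SOX9 peaks. In the lowest quintile of the score the medians were 81.1 kb and 21.2 kb, in the second 77.9 kb and 20.5 kb, and in the third 69.0 kb and 20.9 kb. These pairs are not independent of the rule, which keeps the sites out of the marked regions where most SOX9 peaks lie, and matching by score does not remove this. Against the unmarked length the order turned. Another SOX9 peak lay within 10 kb of the centre of 8.71% (7.44% to 10.2%) of the unmarked sites and of 6.46% of the unmarked length, and within 50 kb of 37.9% (35.6% to 40.3%) and 26.5%. Without the empty stretches, the shares of the length were 7.08% and 29.1%. The nearest SOX9 peak was at a median of 80.0 kb from the sites and 118 kb from that length.

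**Figure D3:**
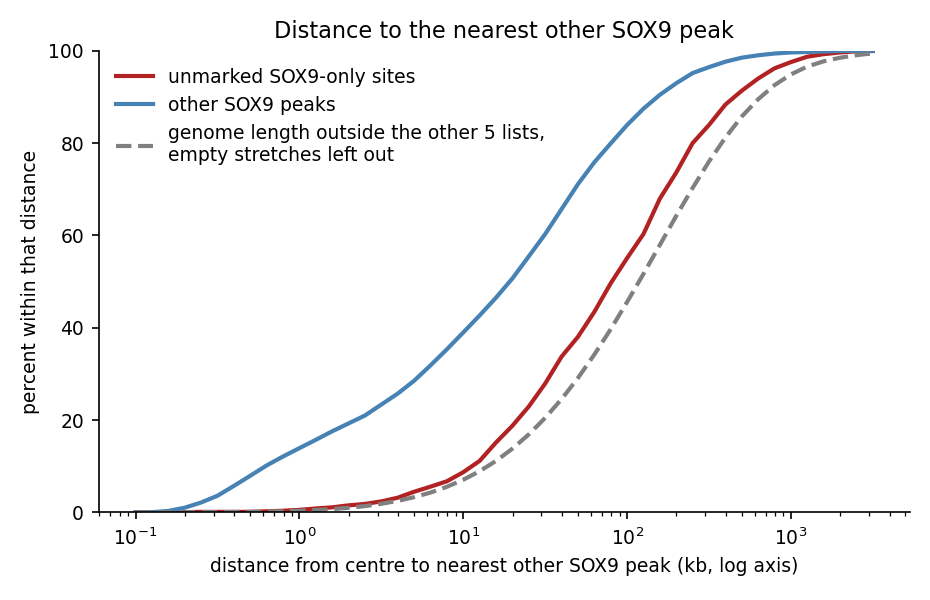
Cumulative percent of unmarked SOX9-only sites (red), of other SOX9 peaks (blue) and of the genome length outside the other 5 lists with the empty stretches left out (grey, dashed) within a given distance in kb (log axis) of the nearest other SOX9 peak. Within 50 kb lay 37.9% of the unmarked sites and 29.1% of the length, and the curve of the other SOX9 peaks lies above both.

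The nearest SOX6 peak was 70.8 kb (65.4 to 77.5 kb) from the unmarked SOX9-only sites. It was nearer than the nearest other SOX9 peak at 832 of the 1630 sites (51.0%, 48.6% to 53.5%). The SOX6-only sites had their nearest SOX9 peak at 69.1 kb (62.9 to 75.9 kb).

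Their neighbours were partly of the same kind. This is not independent of the rule, which keeps the sites out of the marked regions where most SOX9 peaks lie. The nearest other SOX9 peak was itself an unmarked SOX9-only site at 425 of 1630 sites (26.1%, 24.0% to 28.3%), while such sites are 11.0% of the list. Of the 1205 neighbours that were not, 58.6% (55.8% to 61.3%) met SOX6 and 83.9% (81.7% to 85.9%) met H3K27ac, against 63.3% and 90.2% of all SOX9 peaks other than the unmarked sites. Unmarked sites did not form dense groups. The median distance from 1 unmarked site to the next nearest was 445 kb (401 to 484 kb), against 511 kb (497 to 525 kb) from the other SOX9 peaks to their nearest unmarked site.

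When neighbouring unmarked sites were joined over a distance commonly used to stitch enhancer peaks, 1599 remained single, 14 pairs formed and 1 group held 3. The largest gap joined was 12.4 kb. The group lay on chromosome 7 from 62255769 to 62264467, with scores from 50.05 to 60.4 and 51.6 to 55.3 kb from active marks. The longest pairs lay on chromosome 18 from 48678810 to 48691767 and on chromosome 1 from 211894011 to 211906517.

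The number of unmarked SOX9-only sites on an autosome followed the number of input reads. The 49 sites above the median SOX9 score, chromosome X included, were too few, at 0 to 5 per autosome, to tell whether theirs did. Input reads that matched the genome without a mismatch numbered 56256688 in the SOX9 input, 33382416 in the SOX6 input, 15631865 in the H3K27ac input and 16352477 in the input of the methylation marks. They were counted per Mb, divided by the median autosome and averaged over the 4 libraries. Chromosome lengths were approximated by the end of the last peak in any of the 6 lists. Chromosomes 16, 9, 7 and 11 had relative inputs of 2.003, 1.99, 1.87 and 1.59, and the other 16 autosomes lay between 0.689 and 1.28. The value of chromosome 11 depended on the reads counted, and with all aligned reads it was 2.84, the highest. In the SOX9 input, 45.4% of the reads on chromosome 11 matched without a mismatch, the lowest share of any chromosome.

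The 4 autosomes with input above 1.5 held 440 unmarked SOX9-only sites, or 0.981 per Mb (exact Poisson interval 0.891 to 1.08), and the other 16 held 1164, or 0.506 per Mb (0.478 to 0.536). The rate was 1.94 times as high on the 4. For other SOX9 peaks the rates were 6.24 and 4.44 per Mb, a ratio of 1.40, and for SOX9-only peaks with a mark the ratio was 1.30. For unmarked SOX6-only sites the rates were 1.18 and 0.673 per Mb, a ratio of 1.75. The 4 autosomes thus made up 16.3% of the autosomal length and held 27.4% of the unmarked SOX9-only sites and 21.5% of the other SOX9 peaks.

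Over the 20 autosomes, the density of unmarked SOX9-only sites and the input had a Pearson correlation of 0.895 and a Spearman correlation of 0.917. Without chromosomes 16 and 9, the farthest from the median input, these were 0.888 and 0.895. Since 4 autosomes stand apart in input, the correlation was also taken within the other 16, where it was 0.826 (Spearman 0.85). For other SOX9 peaks the Pearson correlation was 0.678 and the Spearman correlation 0.820 over 20 autosomes, with 0.683 (Spearman 0.762) within the 16. For the autosomal ones among the 49 unmarked sites above the median SOX9 score the Pearson correlation was -0.0692. This value is loose, since each autosome held only 0 to 5 of them. The log2 of the density rose by 1.37 per doubling of the input for unmarked sites and by 0.625 for other SOX9 peaks. Chromosomes are points that share the same libraries, depth and cells, so these correlations are descriptions. They were 0.892 to 0.895 against each of the 4 input libraries alone.

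Both measures were divided by the length of the chromosome, which includes the empty stretches. Leaving the stretches out of the length takes them to hold no input reads, which counts per chromosome cannot show. With the length so reduced, chromosome 4 had a relative input of 1.44, close to the division at 1.5. It had 1.21 unmarked SOX9-only sites per Mb, the highest of the autosomes, against 0.886 over its full length. The empty stretches hold no SOX9 peak by definition, so leaving them out can only raise the densities or leave them as they are. The Pearson correlation over the 20 autosomes was then 0.881 and the Spearman correlation 0.854. For other SOX9 peaks these were 0.634 and 0.795. The same 4 autosomes stayed above 1.5, with 0.994 sites per Mb against 0.558 on the other 16, a ratio of 1.78, against 1.29 for other SOX9 peaks.

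**Figure D4:**
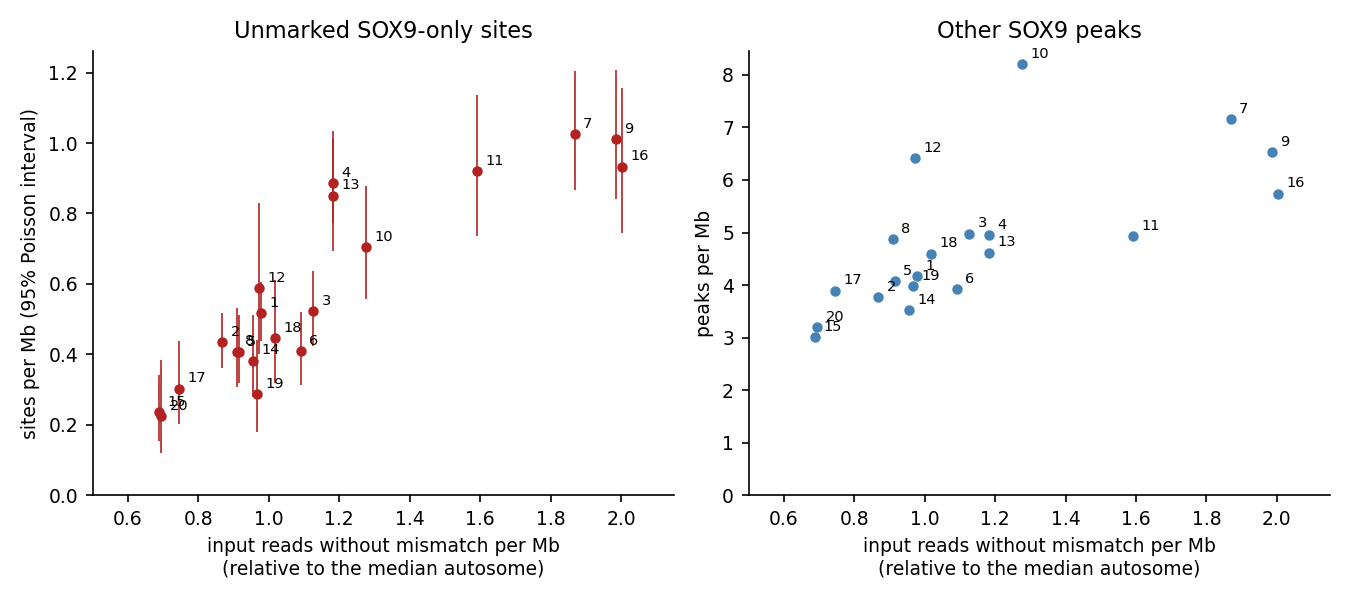
Unmarked SOX9-only sites per Mb (left, bars are exact Poisson 95% intervals) and other SOX9 peaks per Mb (right) on each of the 20 autosomes, against input reads without a mismatch per Mb relative to the median autosome. The 4 autosomes with input above 1.5 held 0.981 sites per Mb against 0.506 on the other 16.

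The share of SOX9 peaks that were unmarked also moved with input, with a Pearson correlation of 0.695 over the 20 autosomes. Chromosomes 20 and 19 had the lowest shares, 6.57% (3.88% to 10.9%) and 6.75% (4.46% to 10.1%), and chromosome 11 had the highest, 15.7% (12.9% to 19.0%). It was 13.6% (12.4% to 14.8%) on the 4 autosomes of high input and 10.2% (9.69% to 10.8%) on the others. Within the lowest quintile of the score the shares were 41.3% (37.7% to 45.0%) and 31.8% (29.9% to 33.8%), and within the second 19.2% (16.4% to 22.4%) and 15.7% (14.3% to 17.3%). In the third quintile they were 4.17% and 3.69%, with intervals that overlap. Whether input depth has a part in which peaks were called was not tested.

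When the 1604 autosomal sites were shared out in proportion to input reads, 15 autosomes had a count whose Poisson interval included the expected number. Chromosome 4 held 220 sites where its input share gave 151 (ratio 1.46, 1.27 to 1.66), and chromosome 13 held 101 where it gave 72.2 (1.40, 1.14 to 1.70). Chromosome 6 held 64 for 88.0 (0.727, 0.560 to 0.929), chromosome 15 held 27 for 40.6 (0.665, 0.438 to 0.967) and chromosome 19 held 21 for 36.3 (0.579, 0.358 to 0.885). Other SOX9 peaks did not show the excess on chromosomes 4 and 13, where their ratios were 1.002 and 0.936. They exceeded the input share on chromosomes 10 and 12, at 1.54 and 1.58, where the unmarked sites had 1.07 and 1.18. Chromosome X, with a relative input of 0.581, held 26 unmarked SOX9-only sites, or 0.168 per Mb (0.110 to 0.247).

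The width of the unmarked sites moved with input as well. Their median width was 344.5 bp (quartiles 259.5 and 497.5 bp) on the 4 autosomes of high input and 258 bp (223 and 326 bp) on the other 16, while the median score was 55.7 and 55.5. By autosome, chromosomes 9, 16 and 11 had medians of 349, 325.5 and 302.5 bp, and chromosome 7 had the highest, 392 bp. Of the other autosomes, chromosome 19, with 21 sites, and chromosome 4 also passed 300 bp, at 322 bp and 317 bp. Other SOX9 peaks differed the same way, with 761 bp on the 4 and 545 bp on the 16, and so did unmarked SOX6-only sites, with 318 bp and 241 bp.

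**Figure D5:**
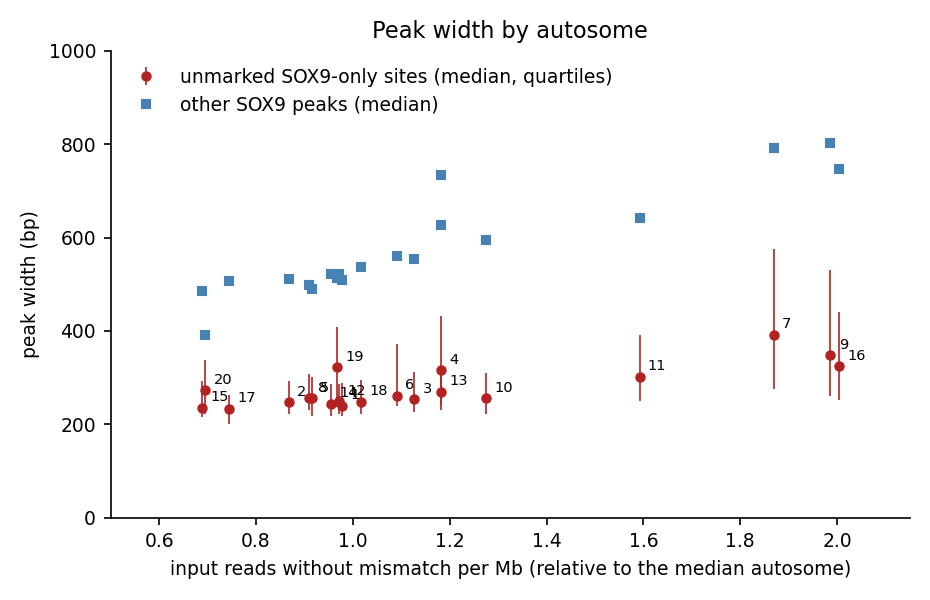
Width in bp of unmarked SOX9-only sites (red, median and quartiles) and of other SOX9 peaks (blue, median) on each of the 20 autosomes, against input reads without a mismatch per Mb relative to the median autosome. The sites had a median of 344.5 bp on the 4 autosomes with input above 1.5 and 258 bp on the other 16.

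Distances from unmarked SOX9-only sites to active marks and to SOX9 peaks differed less between these groups of autosomes. The median distance to an active mark was 14.9 kb (12.3 to 19.7 kb) at high input and 15.9 kb (14.4 to 18.0 kb) on the others, and that to another SOX9 peak 74.5 kb and 79.8 kb. H3K9me3 was nearer at high input, with 25.2 kb (20.5 to 30.1 kb) against 37.2 kb (32.5 to 42.1 kb). The distance from unmarked genome to H3K9me3 was not compared between the groups, so this difference is not shown to be particular to the sites.

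Within chromosomes the sites were spread widely. Of 281 full bins of 10 Mb, 8 held no peak of any list, and 6 of these were consecutive on chromosome 4, from 70000001 to 130000000. Of the other 273 bins, 259 held at least 1 unmarked SOX9-only site, with a median of 5 and a highest count of 20. That bin lay on chromosome 7 from 50000001 to 60000000, where unmarked sites were 27.8% of the SOX9 peaks. On chromosome 4 the bins with peaks held from 7 to 19 sites with a median of 10.5, and on chromosome 13 from 3 to 18 with a median of 8. Over the 258 autosomal bins with a peak, the count of unmarked SOX9-only sites had a Pearson correlation of 0.488 with that of unmarked SOX6-only sites and of 0.438 with that of other SOX9 peaks. Bins share the genome and its input, so these are descriptions.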

How the data were processed

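Peak lists and read counts come from 10 libraries of RCS cells, with 6 immunoprecipitations and 4 inputs, 1 library per antibody. The deposited peak lists, 1 per library and not pooled, carry the name of MACS in their peak names and a peak score made by the authors, of which no source used here gives the scale. Per the submitters' processing notes, CASAVA 1.8 and the build rn5 were used, while no source used here names the aligner or the settings of the peak caller. The inputs are raw read counts per chromosome by number of mismatches, deposited without normalisation per the file headers. They held 36873004 to 131858579 reads, unmatched reads included.

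Overlaps, edge-to-edge distances and densities were computed in Python 3.11.15 with numpy 2.4.6, pandas 2.3.3 and scipy 1.17.1, and the interval functions were tested on simulated data. Positions are printed counting from 1. Medians carry order-statistic intervals, shares Wilson intervals and rates exact Poisson intervals. No p-value was computed, since each antibody has 1 library. The sites and most comparisons were chosen with earlier results of these data known. Sites named are the 10 with the highest scores, the 5 farthest from and the 5 nearest to other lists, the 5 peaks kept out by the smallest overlap and the 3 joined groups with most sites, ties by length. Alternatives changed the overlap, the score threshold, the width, the distance and the input reads. Sequence was not used here.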

Additional observations from a re-analysis of the deposited data

How the results depend on the processing

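Depth of the immunoprecipitations was not used here, so a missing peak cannot be told from a signal below the lowest score of a list. The number of unmarked SOX9-only sites stayed within 1.5 times of 1630 when the overlap had to cover 0.5 of the narrower interval (1690), when no interval was allowed within 1000 bp (1415), with SOX9 peaks narrowed to 400 bp (1621) and without any 1 list (1658 to 2197). Above the median SOX9 score 49 sites were left. These had a median width of 396 bp, medians of 21.75 kb to an active mark, 124.6 kb to another SOX9 peak and 102 kb to SOX6, and 30.6% within 10 kb of an active mark. Over the autosomes alone, their correlation with input was -0.0692, against 0.895 for all unmarked sites. With 0 to 5 of them per autosome this value is loose, and the difference and its cause were not tested. The share within 10 kb of an active mark, 39.8% from edge to edge, was 26.3% for 5 kb, 73.1% for 50 kb and 25.9% with active marks above their median score. The median distance to active marks was 36.1 kb for H3K27ac, 18.4 kb for H3K4me1 and 52.1 kb for H3K4me3 alone. With neighbours above the median score it was 190.04 kb to SOX9 and 155 kb to SOX6. The correlation was 0.470 (Spearman 0.701) for the 962 autosomal sites under 300 bp and 0.925 (Spearman 0.901) for the 642 wider ones, a division chosen after seeing the data. Width itself moved with input, so this is not a separate result. It was 0.790 with all aligned reads, 0.905 with X, 0.881 without the empty stretches (added after seeing the data) and 0.888 without the 2 autosomes farthest from the median input. No paired analysis was possible because each antibody has 1 library.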
